A study of Mus musculus with 10 samples.

Results

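Pseudogenes are copies of genes that have lost the ability to make the parent's product. Processed pseudogenes, or retrocopies, arise when a messenger RNA is reverse transcribed and inserted elsewhere in the genome, usually without the promoter of its parent; others are left behind when a duplicated gene decays within its family. In mammals most cytosines in CpG dinucleotides become methylated as the embryo implants, while CpG-rich promoters of active housekeeping genes stay largely unmethylated, so a retrocopy can be set beside the promoter end of the gene it was copied from.

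The loci described here were 1530 autosomal pseudogenes of the 47042 autosomal genes in the RefSeq GRCm38 gene table, the assembly that build mm10 corresponds to. A gene was taken when its biotype was pseudogene, when it overlapped no protein-coding gene and lay over 5000 bp from any, and when at least 3 measured cytosine positions fell inside it or within 1000 bp of it. The table lists 8884 autosomal pseudogenes, of which 5956 met the distance rule. Among those 5956, 4161 had no measured position, 265 had 1 or 2, and 1530 had enough. No methylation value entered the choice. The loci held 21229 of the 2101419 autosomal positions measured, with a median of 10 positions per locus and a range of 3 to 548. Most, 1307, carry a placeholder symbol beginning with Gm or LOC, and 223 have another symbol.

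The study made reduced representation bisulfite sequencing libraries from whole mouse embryos at embryonic day 7.5, 5 labelled arsenic and 5 labelled control. The labels used here give no dose or route of arsenic, and no strain, sex or number of embryos per library. The extraction protocol in the labels also mentions sperm DNA, although each sample is labelled as embryos. The assay cuts DNA at CpG-rich sites, converts unmethylated cytosines with bisulfite and reads each remaining cytosine as methylated. The 10 libraries stand in the deposited counts as columns numbered 1 to 10, none of which could be tied to a single sample, so arsenic and control embryos were not compared and the columns are given by their numbers.

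The level of a locus is its summed methylated calls divided by its summed coverage, in percent, over the 10 columns unless a column is named. Coverage of the autosomal positions totalled 72552177 calls in the shallowest column and 126221363 in the deepest. A pseudogene locus had a median of 4089 calls over the 10 columns, and its positions averaged 42.2 reads per column. Intervals are 95% Wilson intervals; they cover counting error only, and are too narrow because the calls of 1 read are not independent. Each level is an average over all cells and both chromosomes of whole embryos, so a partly methylated state in each cell and a mixture of methylated and unmethylated cells cannot be told apart.

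No sequence of the pseudogenes themselves was at hand. The promoters of 2 parent genes are shown instead, because pseudogenes and their parents are compared below. They are RefSeq sequences of GRCm38.p6, 250 bases before to 50 after the annotated start, 5′ to 3′ on the gene's strand, and capitals mark CpGs with at least 1 measured cytosine. Rps6 encodes a protein of the small ribosomal subunit, lies on the minus strand at chr4:86857318-86857617 and had 10 of 23 CpGs measured. Eef2 encodes the elongation factor that moves the ribosome along the messenger RNA, lies on the plus strand at chr10:81176381-81176680 and had 12 of 34 CpGs measured.
Rps6: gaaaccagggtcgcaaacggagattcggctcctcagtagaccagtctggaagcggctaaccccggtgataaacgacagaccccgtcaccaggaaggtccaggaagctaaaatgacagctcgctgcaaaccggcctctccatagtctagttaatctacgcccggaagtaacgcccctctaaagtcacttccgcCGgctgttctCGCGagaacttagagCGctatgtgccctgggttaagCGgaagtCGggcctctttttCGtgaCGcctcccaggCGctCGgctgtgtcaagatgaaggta
Eef2: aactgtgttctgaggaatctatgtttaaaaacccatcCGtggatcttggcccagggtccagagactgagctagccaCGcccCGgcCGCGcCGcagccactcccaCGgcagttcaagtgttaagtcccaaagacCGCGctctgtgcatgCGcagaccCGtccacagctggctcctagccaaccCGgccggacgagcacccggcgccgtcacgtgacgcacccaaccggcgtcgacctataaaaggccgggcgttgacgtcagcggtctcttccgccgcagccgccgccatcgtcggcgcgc
The 19 measured positions of the Rps6 promoter had a level of 0.574% (95% interval 0.439 to 0.750%), with 0% in the lowest column, a median of 0.384% and 1.83% in the highest. The 14 positions of the Eef2 promoter had a level of 1.14% (0.935 to 1.40%), with columns between 0 and 1.91%. Their pseudogenes Rps6-ps2 and Eef2-ps2 had levels of 77.3% and 76.5%. Both pairs were taken from the 10 with the widest differences between a pseudogene and its parent. Over the 107 pairs compared below, the median was 58.5% at the pseudogene loci.

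Pseudogene loci were methylated at intermediate levels, and few were free of methylation. The median level was 58.5%, with quartiles of 51.0 and 65.8%. Of the 1530 loci, 45 (2.94%) were under 20%, 1457 (95.2%) lay at 20 to 80% and 28 (1.83%) were over 80%. Over all 29261 autosomal gene loci measured by the same rule, 26% were under 20% and 1.89% over 80%. The share of low loci was thus far below that background, and the share of high loci near it.

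Long non-coding RNA loci at the same distance from coding genes, of which there were 3882, had a median of 54.6%, with 6.11% under 20%. The 107 pseudogenes annotated as transcribed had a median of 54.8%, with 20 of them (18.7%) under 20%. Protein-coding loci, 16995 in number, had a median of 35.2%, with 30.5% under 20%. Pseudogenes left out by the distance rule, 905 that overlapped or lay within 5000 bp of a coding gene, had a median of 60.9% but spread more widely, with 6.74% under 20% and 14.0% over 80%. On either side of the rule's edge, the 50 loci less than 1000 bp beyond it had a median of 57.6% and the 48 pseudogenes less than 1000 bp short of it one of 54.6%.

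**Figure D1:**
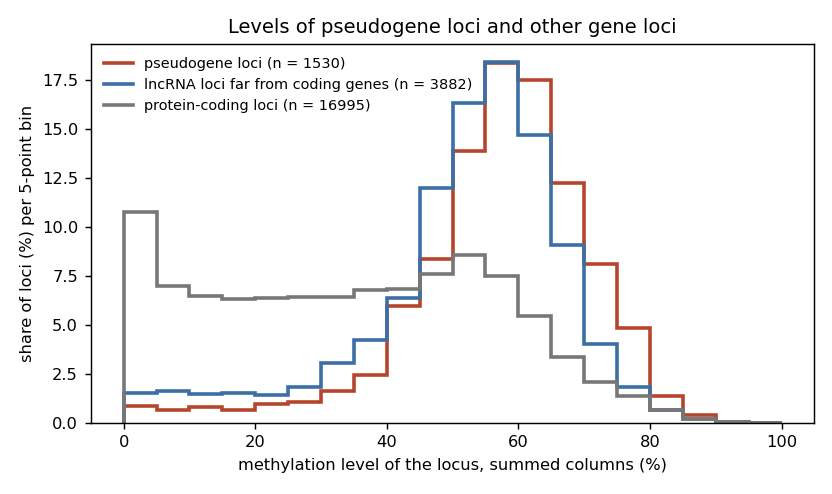
Share of loci (vertical axis, percent) per 5-point bin of methylation level (horizontal axis, percent, 10 columns summed) for 1530 pseudogene loci, 3882 lncRNA loci over 5000 bp from a coding gene and 16995 protein-coding loci. The pseudogene loci form 1 peak around their median of 58.5%, while 30.5% of protein-coding loci lie under 20%.

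In each column the median of the pseudogene loci was above those of the lncRNA, transcribed pseudogene and protein-coding loci. The median pseudogene locus had 61.5% in column 1, 58.6% in column 2, 58.1% in column 3, 59.2% in column 4 and 57.9% in column 5. It had 56.7% in column 6, 56.4% in column 7, 57.1% in column 8, 60.7% in column 9 and 60.3% in column 10. Columns 1, 9 and 10 were thus the highest and columns 6, 7 and 8 the lowest. The pseudogene median exceeded the lncRNA median by 3.58 to 4.46 percentage points in the 10 columns, the transcribed pseudogene median by 3.45 to 7.19 points and the protein-coding median by 20.4 to 25.9 points.

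Column 9 was the highest of the 10 for 315 loci (20.6%), column 1 for 260 (17.0%) and column 10 for 214 (14.0%). Columns 6, 7 and 8 were the lowest for 263 (17.2%), 253 (16.5%) and 214 loci (14.0%). Among lncRNA loci, column 1 was most often the highest, for 20.1%, and column 7 most often the lowest, for 18.5%. Averaged over all autosomal positions, the level was also highest in column 1, at 42.7%, and lowest in column 7, at 40.1%. Protein-coding loci followed another order, with their lowest median in column 5, at 33.5%, and their highest in column 9, at 37.2%. Counts of low loci hardly moved, with 47 to 55 under 20% in a column, while the count over 80% ranged between 32 in column 7 and 83 in column 9.

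**Figure D2:**
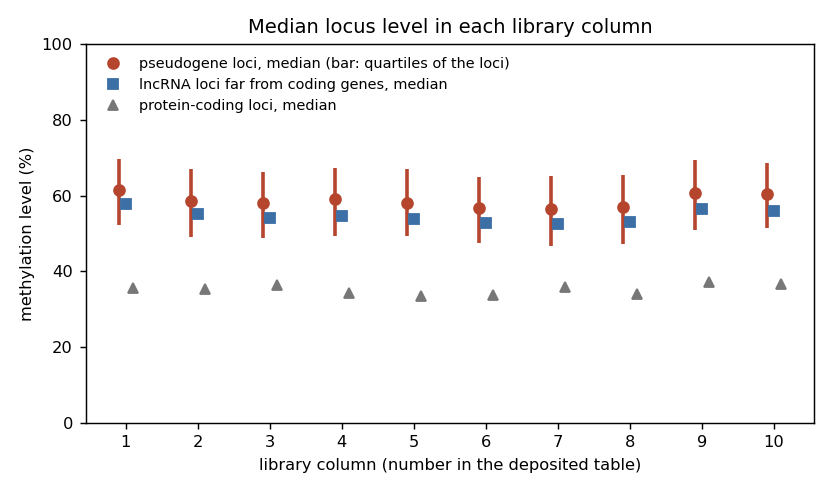
Median locus level (vertical axis, percent) in each of the 10 library columns (horizontal axis, column number) for pseudogene, lncRNA and protein-coding loci, with bars for the quartiles of the pseudogene loci. Pseudogene medians lie between 56.4 and 61.5% and stand above the lncRNA medians in each column.

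Measured position by position, pseudogene loci stood only slightly above other autosomal positions over 5000 bp from coding genes. The mean level of their positions was 54.9%, or 56.1% without Rn18s-rs5, a ribosomal RNA related locus with 548 positions. The other 576633 positions over 5000 bp from coding genes averaged 54.2%, and all autosomal positions 41.1%. Reduced representation libraries favour CpG-dense DNA, so positions were also compared at like density, counted as measured positions within 100 bp. At 1 to 5 such positions, pseudogene loci without Rn18s-rs5 averaged 58.5% and other far positions 55.2%. At 6 to 15 the means were 58.3% at pseudogene loci and 55.5% elsewhere, and at over 15 they were 45.3% and 40.6% in the same order. The differences of 3.35, 2.77 and 4.70 points were above 0 in 10 of 10 columns. Of the single positions without Rn18s-rs5, 6.45% were under a level of 10%, 39.5% at 60 to 80% and 1.43% over 90%. The shares of other far positions were near these, at 6.90%, 35.6% and 1.38%.

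Over pooled positions, mean levels dipped just outside the pseudogenes. Without Rn18s-rs5, positions inside averaged 57.6%, those 1 to 100 bp outside 48.4%, those over 100 and up to 250 bp 47.5%, those up to 500 bp 53.7% and those up to 1000 bp 55.8%. The share of positions under 20% was 6.87% inside and 19.2% in the first 100 bp outside. Density was not matched here. The mean number of measured positions within 100 bp was 9.96 inside, 12.1 in the first 100 bp outside and 6.85 at over 500 and up to 1000 bp. Loci with many flank positions also weigh more in these means. The part of either in the dip was not tested. Within single loci the dip was not general. In the 254 loci with at least 3 positions in each part, the inside was higher than the flank in 133 (52.4%), with medians of 59.9% inside and 57.7% in the flank and a median difference of 0.386 points. That difference was 2.62 points with a flank of 2000 bp and 2.53 points with at least 10 positions per locus. Only 19 loci were over 20 points higher inside, among them Gm4674 (chr14:118181506-118182129), at 68.8% inside and 10.5% in its flank. Stambp-ps1 (chr6:128447096-128448342), a copy of the gene for a deubiquitinating enzyme, had 66.4% inside and 8.56% in its flank. A lncRNA gene, Gm10069, lies within 1000 bp of Stambp-ps1. In 12 loci the flank was over 20 points higher, as in Gm9056 (chr19:37233603-37234560), with 6.05% inside and 60.9% in the flank.

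Length made little difference, since the medians of 6 length classes lay between 57.6 and 59.9%. Loci 5000 to 20000 bp from a coding gene had a median of 56.5%, those up to 100000 bp away 59.4% and those farther 59.2%. Medians by chromosome ranged between 55.6% on chromosome 14 and 61.7% on chromosome 19. The number of positions went with low methylation at its upper end, where 9 of the 40 loci with over 50 positions (22.5%) were under 20%.

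In the median the 45 low loci had more and denser measured positions, but 5 of them had up to 5 positions and 13 over 5 and up to 10. Their median was 22 positions per locus, against 10 over the 1530 loci, and 13.3 positions within 100 bp, against 5.24. Another non-coding gene lay within 1000 bp of 10 of them (22.2%), against 178 of the 1530 (11.6%), and the part of these neighbours in the low levels was not tested. Among loci with at least 5 positions the lowest was Gm2412 (chr12:54729667-54737889), at 0.528% (0.278 to 1.00%) over 6 positions, with 0% in the lowest column, a median of 0.490% and 2.16% in the highest. Small nuclear RNA genes lie within 1000 bp of Gm2412, and with a flank of 2000 bp its level was 37.1%. Gm18763 on chromosome 18 followed at 0.556% over 23 positions and Gm24223 (chr3:104700888-104700959) at 1.62% over 24. Gm7450 had 2.04%, Gm8281 2.66%, Gm18943 2.73% and Gm2399 2.98%. The last of these 8, Gm16505 (chr13:3360683-3362290), was low over 92 positions, at 3.28% (3.10 to 3.48%), with columns between 2.70 and 3.74%. Its positions inside the gene alone had 1.62%, and those of Gm2399 1.98%.

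Of the 45 low loci, 10 (22.2%) lay within 1000000 bp of another low locus, and of the other 1485 loci 92 (6.20%) lay that near to one. The 10 were Gm13231, Gm13243 and Gm13169 on chromosome 4, Gm16425, Gm10060 and Gm20584 on chromosome 8, H2-Pb and Gm15321 on chromosome 17, and Gm3621 and Gm4844 on chromosome 19. Gm3621 and Gm4844 share measured positions. Gm10060 (chr8:19784746-19784850) had 5.60% over 88 positions and Gm20584 (chr8:20424592-20424696) 13.6% over 73. No low locus was found among the 109 loci on chromosome 1 and the 65 on chromosome 11, and 6 were among the 89 on chromosome 17. Over the 1530 loci the share was 2.94%, so these counts are small ones. A symbol other than Gm or LOC was carried by 5 of the 45, which were Vmn2r-ps108, Vmn1r-ps135, Rpl36-ps8, H2-Pb and Rn18s-rs5.

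Rn18s-rs5 (chr17:39846354-39848202), related to the 18S RNA of the small ribosomal subunit, was the most covered locus. It held 548 positions and 11032361 calls, or 2013 reads per position and column. The level was 7.46% (7.44 to 7.48%), with 6.62% in the lowest column, a median of 7.44% and 8.48% in the highest, and 506 of its 548 positions were under 20%. Without the most covered positions of the table the level was 14.9%. Ribosomal DNA exists in many near-identical copies, and reads of those copies cannot be told apart from reads of this locus. The lncRNA gene AY036118 lies within 1000 bp of Rn18s-rs5. The next most covered loci, Gm13036 (chr4:146058774-146059717) and Gm7807 (chr8:20381027-20381692), had 303 and 222 reads per position and column, with levels of 56.7% and 52.4%. Gm13036 had 50.1% without the most covered positions of the table and 53.4% with each position weighted equally.

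The highest locus was Gm4954 (chr1:166762145-166770494), at 92.1% (91.4 to 92.7%) over 17 positions, with 87.5% in the lowest column, a median of 92.3% and 95.4% in the highest. Gm15459 (chr5:5781529-5783633) followed at 89.9%. Gm13487 had 88.1% over 4 positions. Among loci with at least 5 positions, the other 6 of the highest 8 had levels between 84.6 and 85.6%. They were Gm14148, Gm6171, Gm3375, Gm51954, Gm18672 and Gm15377. Gm3375 had 52.4% inside the gene and 91.0% in its flank. The loci with the most positions after Rn18s-rs5 fell on both sides. Gm14371 on chromosome 2 had 62.8% over 117 positions and Gm7389 on chromosome 8 had 65.8% over 107, while Gm8556 on chromosome 7 had 5.06% over 88, or 8.08% with a flank of 2000 bp.

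Of the 766 loci with at least 10 positions, 625 (81.6%) had no position under 20%, 24 had over 75% of their positions under 20%, and 29 were mixed, with 25 to 75% of positions under 20%. The interquartile range of the positions within a locus had a median of 14.1 points. Among the mixed ones, Gm9481 (chr17:17910572-17913013) had 50.8% of its 59 positions under 20% and a level of 27.4%, with 23.2% in the lowest column and 34.8% in the highest. Both strands of a CpG gave like values. Over 6418 CpGs of the loci measured on both strands the mean was 52.6% on each, and the median absolute difference was 3.59 points, against 2.29 over the 647386 such CpGs of all autosomes.

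Pseudogenes of protein families differed in how far they departed from their intact relatives. Of the 182 ribosomal protein pseudogenes in the gene table, 53 were among the loci, with a median of 61.6% and 1 under 20%. The 87 protein-coding ribosomal protein loci had a median of 3.48%, with 67 under 20%. These coding loci include the genes' promoters and had a median of 61 positions, against 11 at the pseudogenes, and density was not matched. The 1 pseudogene under 20% was Rpl36-ps8 (chr4:116839880-116840244), named for a protein of the large ribosomal subunit. It had 13.7% (13.2 to 14.3%) over 28 positions, with 11.2 to 16.3% in the columns.

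Receptor pseudogenes were set beside the intact genes of their families. Olfactory receptors and vomeronasal receptors detect odours and pheromones in the nose. The 16 olfactory receptor pseudogenes measured, of 238 in the table, had a median of 54.5%, and the 93 protein-coding olfactory receptor loci one of 53.0%. They ranged between 30.9% at Olfr200-ps1 and 78.6% at Olfr650-ps1. The 25 vomeronasal pseudogenes, of 226, had a median of 56.0%, and the 54 protein-coding loci one of 49.2%. Vmn2r-ps108 (chr13:66808949-66814287) was the lowest of these, at 6.24% over 9 positions, with 0% in the lowest column, a median of 5.05% and 13.9% in the highest. Vmn2r-ps26 was the highest, at 74.9%. Cytochrome P450 enzymes oxidise drugs and steroids; their 12 pseudogenes, of 23, had a median of 61.0%, and the 74 protein-coding loci one of 53.1%. They ran between 33.7% at Cyp2d67-ps and 78.4% at Cyp2b28-ps.

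Among the smaller groups, the 6 pseudogenes of glycolytic enzymes had a median of 71.2%, between Tpi-rs5 at 60.3% and Tpi-rs4 at 79.1%. The 4 major histocompatibility pseudogenes, which are relatives of the antigen-presenting molecules, had a median of 43.5%. H2-Pb (chr17:34073612-34076241) had 18.3% over 4 positions and H2-M10.5-ps1 57.7% over 11. The 3 ribosomal RNA related loci were Rn18s-rs5, Rn5s-ps1 at 43.2% and n-R5s92 at 45.5%. The 3 copies of Hmgb1, which encodes a DNA-bending chromatin protein, had a median of 61.6%. The 3 copies of Tpt1, the translationally controlled tumour protein, had one of 57.0%. Both copies of Uqcrh, a subunit of respiratory complex III, were measured, at 50.6% and 81.0%. Of 53 pseudogenes named after early embryo genes 5 were measured, with a median of 52.6%.

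**Figure D3:**
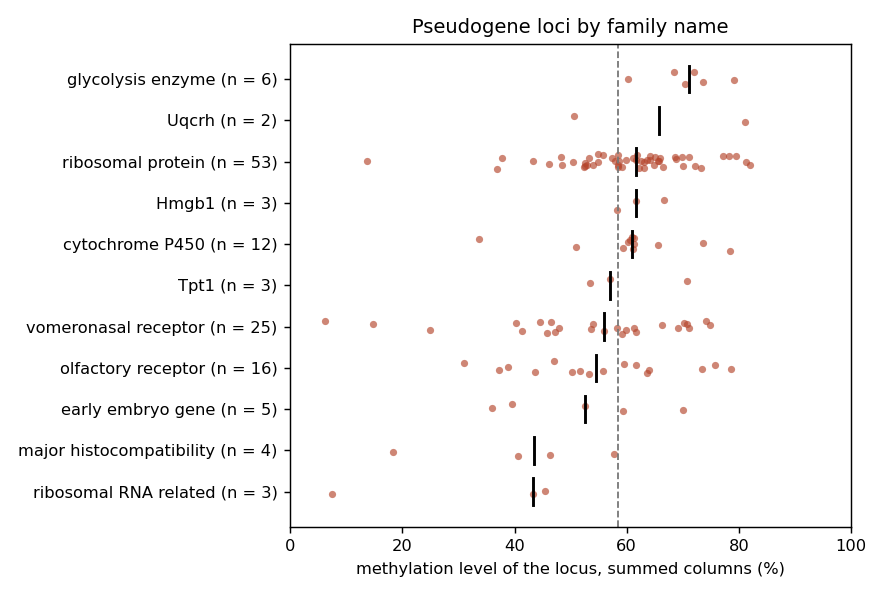
Methylation level (horizontal axis, percent, 10 columns summed) of each pseudogene locus in 11 families read from gene symbols (rows), 1 point per locus with a black bar at the family median and a dashed line at the median of the 1530 loci, 58.5%. Family medians run between 43.2% for ribosomal RNA related loci and 71.2% for glycolytic enzymes.

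Pseudogenes and parents were set side by side where the pseudogene's symbol names its parent. Whether each of these pseudogenes is a retrocopy or a decayed duplicate was not determined. Of 203 loci with a symbol of that form, 107 were paired. Their symbols name an autosomal protein-coding gene with at least 3 positions within 1000 bp of 1 of its ends. The others name no such gene, or one with fewer positions. The 107 pairs had 82 parents. Where both ends of a parent were measured, the one holding more positions was taken. That choice favours dense ends, and pairs were not matched for density. Over all autosomal positions the mean level was 12.6% at over 15 positions within 100 bp and 56.3% at 1 to 5. The part of density in the differences below was not tested. The locus was higher than the parent's end in 104 of 107 pairs, and in 103 it was higher in each of the 10 columns. The median was 58.5% at the pseudogene loci and 1.24% at the parents' ends, and the median difference was 55.0 points. By column the medians were 56.6 to 61.8% at the loci and 1.13 to 1.55% at the parents. Of the 82 parents 69 were under 20% and 63 under 5%, whereas 1 of the 107 loci was under 20%.

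The inside of the parents was closer to the pseudogenes. In the 73 pairs whose parent had at least 3 positions over 1000 bp from both ends, the median was 58.7% at the pseudogene loci and 35.9% inside the parents. The locus was higher in 50 of these 73, with a median difference of 22.4 points. These pairs had 54 parents, and a parent with several copies enters more than once. With each parent counted once, the median inside the parents was 49.9%.

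**Figure D4:**
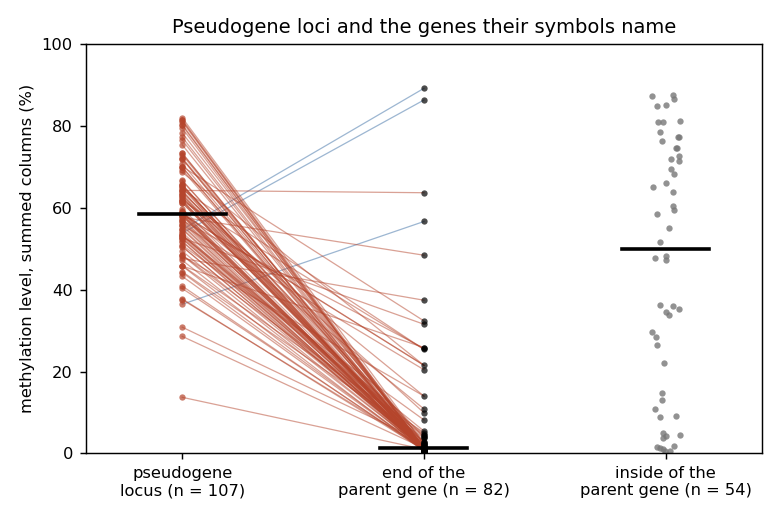
Methylation level (vertical axis, percent, 10 columns summed) of 107 pseudogene loci, of the measured end of their 82 parent genes and of the inside of 54 parents, with red lines joining pairs where the locus is higher, blue lines joining the 3 where it is lower, and black bars at the medians of the points. The median bar is at 58.5% for the loci, 1.32% over the parents' ends and 49.9% over their insides.

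Ribosomal protein pseudogenes made up 45 of the pairs, with 27 parents, and in 45 of 45 the locus was higher in each column. Their median was 61.8%, and that of the parents' ends 1.22%. The 7 measured copies of Rpl19, a protein of the large subunit, lay between 50.5% at Rpl19-ps8 and 73.3% at Rpl19-ps3. The end of Rpl19 itself had 1.22%, with 0.723% in its lowest column and 1.95% in its highest. Copies of Rpl31 had 57.4 to 79.4%, against 0.738% at the end of Rpl31, and copies of Rps19 58.4 to 69.9%, against 1.46% at Rps19. The 3 copies of Rpl21 had 58.4 to 68.7%, against 21.5% at the end of Rpl21.

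The widest gap was at Rps7-ps2 (chr12:3521722-3523568), named for a protein of the small subunit. It had 81.3%, with 72.6% in its lowest column, a median of 83.3% and 89.3% in its highest, against 0.660% at the end of Rps7. Llph-ps1 had 81.5% over 4 positions, against 1.38% at Llph. Uqcrh-ps1 (chr15:99898098-99898614) had 81.0%, with 75.6 to 86.9% in the columns, against 1.09% at Uqcrh. Column 5 gave 5.71% at Uqcrh, against 0.0890 to 1.18% in the other 9. Rps6-ps2 (chr8:88806360-88807174) had 77.3% over 16 positions, with 72.7% in its lowest column, a median of 76.4% and 86.9% in its highest, against 1.58% at the end of Rps6. Eef2-ps2 (chr4:143241827-143243368) had 76.5% over 7 positions, with 60.8% in its lowest column, a median of 78.2% and 81.9% in its highest, against 1.38% at the end of Eef2. These are the genes whose promoters are printed above. Further wide gaps were at Mrto4-ps2, Tmem229b-ps, Rpl31-ps10 and Rps12-ps24, with loci at 78.3 to 80.3% and parents at 0.738 to 2.17%. With a flank of 2000 bp the level of Mrto4-ps2 was 30.1%.

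Both early embryo pairs had smaller gaps, and their parents' ends were partly methylated. Pairs outside this group had the same, such as those of Psenen at 37.4% and Gng2 at 25.9%, with gaps of 10.2 and 19.9 points. The promoter window at the annotated start of Psenen, which lies within that end, had only 1.05% over 12 positions. Zfp42 encodes a zinc finger protein widely used as a marker of pluripotent cells. Zfp42-ps1 (chr15:93678603-93680033) had 70.1% over 19 positions, with 61.3 to 74.8% in the columns, against 32.4% at the end of Zfp42. Tdgf1 encodes a coreceptor for Nodal signalling, which patterns the embryo at this stage. Tdgf1-ps1 (chr16:3730258-3731155) had 52.6% over 3 positions, with 42.7 to 61.7% in the columns, against 31.5% at the end of Tdgf1. At the annotated start of Tdgf1 the level was 27.6%.

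In 3 pairs the locus was lower than the parent's end used. Tpm3-rs7, named for a tropomyosin, had 54.7%, against 89.2% at Tpm3. Ybx1-ps2, named for a protein that binds DNA and RNA, had 53.8%, against 86.3% over 6 positions at Ybx1. Stambp-ps1 had 36.4%, against 56.6% at Stambp. The end of a gene in the gene table need not be the start in the promoter table, and the promoter windows gave other values for 2 of these parents, with 0.721% over 53 positions at Ybx1 (chr4:119294464-119294763) and 1.10% over 3 at Stambp. Of the 44 parents with at least 3 positions in that window, 41 were under 5% and 43 under 20%, with a median of 1.05% and Tdgf1 the highest.

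The range of a locus, its highest minus its lowest column, had a median of 17.0 points and quartiles of 12.4 and 22.8. It was under 10 points in 200 loci, over 30 in 152 and over 50 in 15. The 152 loci had a median of 5 positions and 1357 calls. At levels of 20 to 80%, the median range fell with the number of calls through 25.8, 19.9, 16.0 and 11.5 points in loci with up to 2000, up to 4000, up to 8000 and over 8000 calls. In the same classes lncRNA loci had 25.01, 18.1, 14.9 and 10.3 points, and protein-coding loci 23.9, 18.3, 14.7 and 9.18 points. Divided by its degrees of freedom, the chi-square of calls over columns had medians of 3.56, 4.49, 6.47 and 8.01 at pseudogene loci in these classes. It is near 1 where independent calls differ by counting error alone, but calls of 1 read are not independent. For a given spread it also grows with the number of calls. In the same classes lncRNA loci had 3.21, 3.997, 5.29 and 7.36, and protein-coding loci 3.07, 4.06, 5.32 and 13.6.

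The widest range was at Gm5454 (chr13:103356181-103358567), with 16.9% in column 9, a median of 53.6% and 86.0% in column 2 over 5 positions and 2242 calls. Trmt112-ps1 (chr5:91737530-91738113) had 30% in column 2, a median of 75.3% and 85.4% in column 9. Gm30502 ranged between 26.8 and 79.7%, Gm35405 between 33.3 and 85.7%, and Gm13410 between 20% and 70.8%. The level of Gm13410 was 48.5%, or 20.8% with a flank of 2000 bp. Among loci with many calls, Ppp1r2-ps5 (chr17:6492191-6494321) stood out in the plot of ranges and was picked after its values were seen. It had 49410 calls at 76 positions and a level of 44.0%, with 33.8% in the lowest column, a median of 43.4% and 56.7% in the highest.

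**Figure D5:**
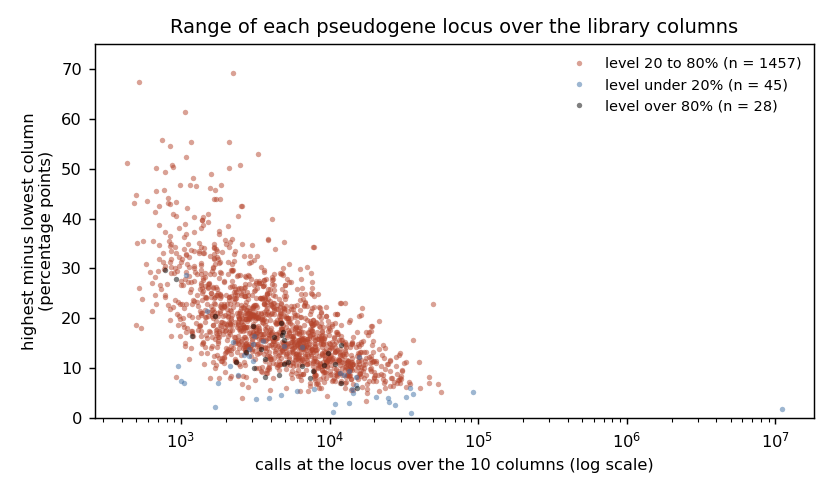
Highest minus lowest column (vertical axis, percentage points) against the number of calls over the 10 columns (horizontal axis, log scale) for the 1530 pseudogene loci, coloured by level. The range narrows as calls increase, with a median of 17.0 points, and the 45 loci under 20% have a median range of 6.98 points.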

How the data were processed

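The samples are labelled E7.5 embryos and were sequenced by reduced representation bisulfite sequencing, per the labels' protocols, which also mention sperm DNA. Named among the tools are Trim Galore, Bismark and methylKit, with build mm10, per the submitters' processing notes, with versions and settings not given in the sources used here. For each cytosine position and library column the authors deposited 3 raw counts, namely coverage, methylated calls and unmethylated calls, per the file headers. Each position has at least 10 reads in each column, so the values describe the part of the genome shared by the 10 libraries. Of 2137826 entries, 2 that repeated a position were left out, and X and Y were not used. The strand of a position is given, and molecular identifiers are not mentioned in the sources used here.

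Column names matched 0 of 10 sample titles, so the planned comparison of arsenic with control was not run. For the same reason no mean over columns and no test between groups of columns is given, only the lowest, median and highest column and Dixon's check for a column apart. Gene positions and biotypes came from the RefSeq GRCm38 table. Of 165931 measured positions in the RefSeq promoter windows, 165925 sit at a CpG of the listed sequence. Levels are summed methylated calls over summed coverage, with 95% Wilson intervals. A gene's end is a window of 1000 bp on each side of it.

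The loci, families and comparisons were chosen with earlier results of these data known, and families were read from symbols once the gene table was seen. The named loci were, among those with 5 or more positions, the 8 highest, the 8 lowest, the 5 with the most positions, the 5 with the widest range and the 3 with the most reads. The highest and lowest of each family with 3 or more loci and the 10 widest differences from a parent were added, whatever their number of positions. This gave 55 loci, of which 1 is not reported here. Others, such as the 3 pairs with a lower locus, extremes of inside against flank, copies of 1 parent and grouped low loci, were picked after their values were seen.

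Alternatives changed the coverage minimum, the most covered positions, flank, number of positions, distance, weighting, shared positions, symbols and columns. Calculations used Python 3.11.15, numpy 2.4.6, pandas 2.3.3, scipy 1.17.1 and matplotlib 3.10.9, and were tested on simulated data.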

Additional observations from a re-analysis of the deposited data

Results flagged for a closer look

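Over 61 measures (the named loci and summary values), each with 10 columns, the highest or lowest column was checked for a gap to its nearest neighbour that exceeds Dixon's 95% critical value. Such a gap arises by chance in about 1 in 20 groups, and 3 were found. Gm2412 had 2.16% in column 3, against 0 to 0.840% in the other 9 columns. Gm8281 had 6.61% in column 8, against 0.672 to 3.32% in the others. Eef2-ps2 had 60.8% in column 9, the lowest column there, against 71.8 to 81.9% in the others.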

How the results depend on the processing

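No paired analysis was possible because the columns could not be tied to samples. The median level of the pseudogene loci stayed within the spread between columns under each setting tried. The count under 20% (45) was 27 with at least 10 positions per locus, 24 at over 20000 bp from coding genes and 5 among symbols other than Gm and LOC. The count over 80% (28) was 16 with at least 10 positions, 17 without flanks and 6 among those symbols. These settings keep fewer loci, 766, 968, 223 and 1074 in the order 10 positions, 20000 bp, symbols and no flank. The excess over lncRNA loci (3.90 points) was 5.16 with at least 10 positions, 4.20 with at least 5, 4.58 without flanks and 3.21 with flanks of 2000 bp. The excess over protein-coding loci (23.4) was 26.6 with at least 10 positions, 20.6 at a minimum of 20 reads, 24.98 with equal weights, 19.7 without flanks and 20.7 with shared positions counted once. The inside minus flank difference (0.386) was 2.53 with at least 10 positions and at 20 reads, 2.62 with flanks of 2000 bp and 1.77 among those symbols. Pairs above their parent (97.2%) were 100% with at least 10 positions. In 2 settings chosen after seeing the data they were 96.7% with every pseudogene biotype and 97.8% without loci near another non-coding gene. The causes were not tested.

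Leaving out each column in turn gave medians of 58.1 to 59.0%, 45 to 48 loci under 20% and 27 to 31 over 80%. It gave excesses of 3.77 to 4.15 over lncRNA and 23.0 to 23.8 over protein-coding loci, inside minus flank differences of 0.243 to 0.908 and 96.3 to 97.2% of pairs. Of 240 values over the 55 named loci, 207 stayed within the spread between columns and 33 moved, 8 values in all changing by over 1.5 times. Equal weighting and single counting were not run for pairs and flanks. Loci with up to 2000 calls had a median range over columns of 25.8 points, which limits what single columns show there.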
